A study of Mus musculus with 15 samples.

Results

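The transcriptional response of a mouse dendritic cell line to dinitrofluorobenzene (DNFB) alone was compared with its response to diphenyl iodonium (DPI) alone. The arrays were taken by their titles, 3 with DNFB and 3 with DPI, which are 6 of the 15 arrays of the series, and arrays on which the compounds were combined were not compared. All 45037 probe sets other than the 64 array controls were tested, of 45101 on the array, and 18193 named genes were each represented by their brightest probe set. Both groups were of the same cell line, which the labels call dendritic, with the A/J genetic background and an origin in the epidermis of newborn mice. The 3 non-treated arrays of that line were used as the reference level for each compound. The 6 arrays with hydrogen peroxide or with DPI and DNFB together entered the estimate of the spread between replicates. They also entered the mean signal over all 15 arrays, by which each gene's probe set was chosen and genes were ranked by signal. The titles call the controls non-treated while the series description speaks of vehicle, and doses, exposure times and solvents were not given in the sources used here. An effect of the compound therefore cannot be told apart from one of its dose or timing. The labels do not state whether replicate arrays stem from different cultures, and the p-values refer to the variation among these arrays alone, part of which may be technical.

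DNFB is a small electrophile that binds to thiols and amines of proteins and is a classical contact allergen, whose protein adducts are taken up and presented by dendritic cells of the skin. DPI blocks enzymes that carry electrons on a flavin, among them the phagocyte NADPH oxidase, nitric oxide synthases and complex I of the respiratory chain, and is used to stop the formation of reactive oxygen species. In dendritic cells, electrophiles and oxidants release the transcription factor NRF2 from its inhibitor KEAP1, and danger signals activate NF-kB and MAP kinases, which lead to maturation, the state in which these cells raise costimulatory molecules for T cells.

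The values are MAS5 signals, a linear intensity per probe set, rescaled so that every array had a 2% trimmed mean of 500. Differences were tested with limma on log2(signal + 15), so folds of dim genes are understated, and a gene was called at an adjusted p below 0.05. Replicates correlated across probe sets with r of 0.969 to 0.973 with DNFB and 0.964 to 0.973 with DPI; probe sets are not independent replicates. The beta-actin 3'/5' signal ratio, a measure of RNA integrity, was 1.207 to 1.534 with DNFB and 1.187 to 1.338 with DPI. On the arrays with DPI and DNFB together, which entered the estimate of the spread, it was 1.504 to 2.288. All 18 measured dendritic and Langerhans cell markers lay at or above the 40th percentile of signal. Genes at or above it were higher with DNFB than with DPI in 16.6% and lower in 16.1%. Between the compounds 4 of the 18 markers were higher with DNFB, 1 was lower and 13 were not called (median difference -0.25 on the log2 scale). Those higher were Cd207 (4.42), Irf4 (1.47), Id2 (0.71) and Irf8 (0.71), and the lower one was Csf1r (-0.36), while Itgax (CD11c) and H2-Ab1 (MHC class II) differed by 0.14 and -0.16 without a call. Against untreated cells 2 of the 18 rose and 1 fell with DNFB (6.34% and 7.96% of all genes), and none rose and 4 fell with DPI (7.79% and 11.1% of all genes). Of the markers of cells other than dendritic cells, 3 of 11 for keratinocytes, 4 of 11 for fibroblasts, 4 of 9 for T and B cells, 3 of 8 for endothelium, 4 of 9 for mast cells, 5 of 8 for melanocytes and 8 of 11 for macrophages reached that percentile, and none was at 0 on all 3 arrays of a group. The summed signal of the 11 macrophage markers was 23636 to 25833 on the DNFB arrays and 13528 to 15218 on the DPI arrays, against 19698 to 23956 without treatment. That direction rests on Cd14: without it, a sum chosen after the data were seen, the 10 others gave 9776 to 11398 with DNFB, 11969 to 13562 with DPI and 18256 to 22625 without treatment. Of the 11, Cd14 was higher with DNFB and Csf1r and Fcgr1 (-0.78) were lower, with a median of -0.33, and the calls of Csf1r and Fcgr1 ended without single arrays of any of the 3 groups (adjusted p of 0.0508 to 0.204). The summed fibroblast markers were lower with DNFB (1053 to 1430) than with DPI (1643 to 1875). So were the endothelial markers (409 to 433 against 537 to 710), while the mast cell markers were higher (1552 to 2293 against 1332 to 1523). A single called member held much of each difference, and sums without it were not made. Fap read 626, 515.5 and 515.5 with DNFB against 1051, 1096 and 1062 with DPI. Kdr read 129, 191 and 71.4 against 379, 345 and 359, and Kit 1625, 1225 and 971 against 641.5, 818 and 825.5. The list medians were -0.12 (fibroblast), 0.09 (endothelial) and -0.18 (mast cell). The part of these markers in the results was not tested. In RNA from whole cultures, fewer cells of a type and less RNA per cell cannot be told apart.

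DNFB and DPI left the cells with different transcriptomes. Of 18193 genes, 4275 (23.5%) were called between them, 2146 higher with DNFB (11.8%) and 2129 lower (11.7%). The difference was at least 2-fold for 879 of the higher and 669 of the lower genes. The median difference over all genes was -0.08 on the log2 scale, and the median SE of a gene at or above the 40th percentile was 0.196. The 3 DNFB arrays did not overlap the 3 DPI arrays for 7176 genes (39.4%), of which 4237 were called. Among the 12701 genes at or above the 40th percentile, to which most members of the gene lists below belong, 16.6% were higher with DNFB and 16.1% lower.

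Against the non-treated arrays, 2602 genes (14.3%) were called with DNFB, 1154 risen (6.34%) and 1448 fallen (7.96%), and 3435 (18.9%) with DPI, 1417 risen (7.79%) and 2018 fallen (11.1%). Both comparisons share the 3 non-treated arrays, so their errors are not independent. Of the 2146 genes higher with DNFB than with DPI, 470 had risen with DNFB without a call for DPI, 1012 had fallen with DPI without a call for DNFB, and 145 had done both. A further 131 were called the same way with both compounds to different extents, and 388 were called with neither. Of the 2129 genes lower with DNFB, 630 had fallen with DNFB only, 666 had risen with DPI only, 103 had done both, 140 were called the same way with both and 590 with neither. More of the genes higher with DNFB were thus called as falling with DPI only than as rising with DNFB only.

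**Figure D1:**
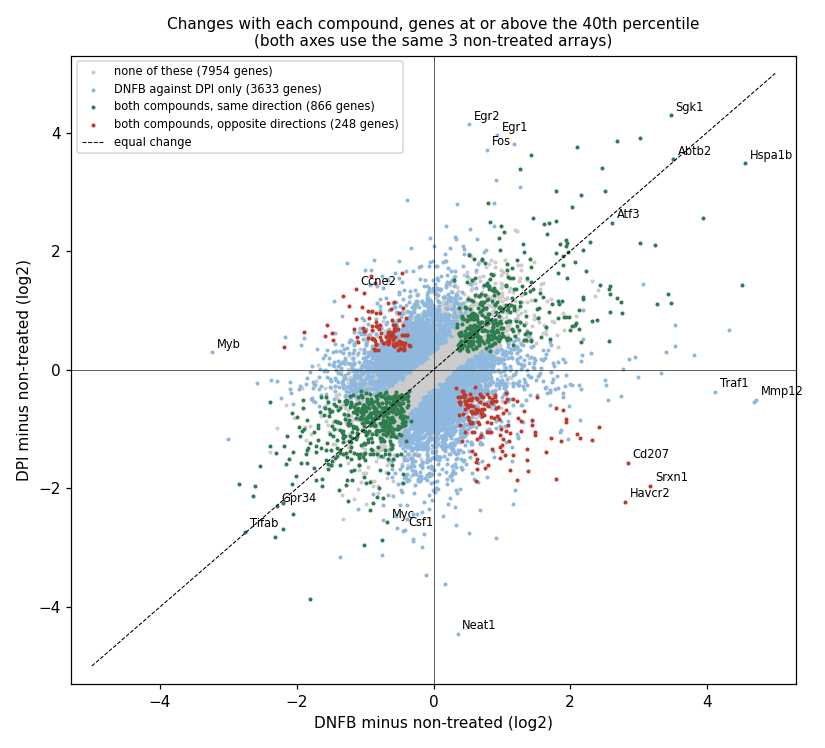
Each point is a gene at or above the 40th percentile of signal (12701 genes), with its change with DNFB against non-treated cells on the x axis and with DPI on the y axis, both on the log2 scale, and the dashed line marks equal change. Green points were called the same way with both compounds (866 genes) and red points in opposite directions (248 genes). Blue points are the other genes called in the direct comparison, including those called against non-treated cells with DNFB only or DPI only. Srxn1, Havcr2 and Cd207 lie far to the lower right and Egr1, Egr2 and Fos near the top.

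Genes of the NRF2 program and of glutathione supply were mostly higher with DNFB than with DPI. Of 36 measured members 19 were higher and 4 lower, with a median difference of 0.5. Among all genes at or above the 40th percentile the shares were 16.6% and 16.1%, with a median of -0.06. Srxn1, sulfiredoxin, which repairs over-oxidised peroxiredoxins, read 14527, 13619.8 and 13680.5 on the 3 DNFB arrays, 399, 466 and 302 on the DPI arrays and 1532, 1621 and 1457 on the non-treated arrays. The groups did not overlap, with every DNFB array far above and every DPI array far below the untreated level. Srxn1 was 35.1-fold higher with DNFB than with DPI (log2 5.13, SE 0.13, limma adjusted p = 5.82e-16), having risen by 3.17 with DNFB and fallen by 1.96 with DPI. Gclm, the modifier subunit of the enzyme that limits glutathione synthesis, read 9906, 7828 and 9008 with DNFB, 1942, 1427 and 1983 with DPI and 4556, 3585 and 4227 without treatment. It too lay on opposite sides of the untreated level, 4.99-fold apart (log2 2.32, SE 0.14, adjusted p = 5.98e-10). Slc7a11, the cystine importer, behaved alike, 1.93 with DNFB and -0.89 with DPI on the log2 scale, as did Blvrb, biliverdin reductase B, at 1.8 and -0.65.

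Hmox1, heme oxygenase 1, differed through DNFB alone. Its signal was 14672, 10850.3 and 9082 with DNFB and 1158, 1167 and 906 with DPI, and the DPI arrays overlapped the non-treated arrays, which read 1166, 1268 and 932. The fold between the compounds was 10.4 (log2 3.38, SE 0.27, adjusted p = 2.21e-08). Sqstm1, an autophagy receptor that also binds KEAP1 (2.03), and Txnrd1, thioredoxin reductase (1.44, SE 0.11), likewise rose with DNFB and were not called with DPI. Keap1 itself (1.16) and Osgin1 (2.31) were higher with DNFB, having fallen with DPI by 0.88 and 1.75 without a call for DNFB. Gclc, the catalytic partner of Gclm, rose with both compounds, by 1.23 with DNFB and 0.74 with DPI, and was higher with DNFB by 0.48. Nqo1, a quinone reductase, was dim: it read 213, 145 and 193 with DNFB and 50.3, 56.6 and 10.4 with DPI, and was called (log2 2.0, SE 0.55, adjusted p = 0.0129). That call ended without DNFB replicate 1 (adjusted p = 0.0541) or DPI replicate 3 (adjusted p = 0.0889). The 4 members lower with DNFB were Ugdh, UDP-glucose dehydrogenase (-1.87), Gsta4 (-1.61) and Gstp1 (-0.74), which are glutathione transferases, and Tkt, transketolase (-0.81). Ugdh rose with DPI, by 1.82.

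NRF2 with its small MAF partners binds the antioxidant response element, searched here as TGACNNNGC on both strands in RefSeq promoters (250 bases before to 50 after the start site, build GRCm38.p6). The letters occurred in 13 of the 30 list members with a promoter entry (43.3%), against 16.2% of the 14452 genes on the array that have one. They were present in 6 of the 14 members higher with DNFB (42.9%) and in 6 of the 13 that were not called (46.2%). Stretches of 150 bases are shown because the genes differ in how DPI moved them: Srxn1 and Gclm fell with DPI while Txnrd1 was not called. All are on the plus strand, with the matching letters in capitals as they read on that strand, at chr2:152105424-152105573 for Srxn1, chr3:122245352-122245501 for Gclm and chr10:82859043-82859192 for Txnrd1.
Srxn1: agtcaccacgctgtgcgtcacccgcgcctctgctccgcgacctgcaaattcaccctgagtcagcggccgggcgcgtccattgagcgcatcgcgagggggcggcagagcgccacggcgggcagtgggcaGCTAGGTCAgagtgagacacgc
Gclm: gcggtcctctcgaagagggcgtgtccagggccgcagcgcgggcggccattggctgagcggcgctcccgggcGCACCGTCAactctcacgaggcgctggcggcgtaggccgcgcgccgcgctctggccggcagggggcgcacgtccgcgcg
Txnrd1: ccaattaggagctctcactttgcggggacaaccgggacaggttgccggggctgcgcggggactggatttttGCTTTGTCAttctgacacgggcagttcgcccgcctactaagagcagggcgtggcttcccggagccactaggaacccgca
The match began 28 bases after the start site in Srxn1, 134 bases before it in Gclm and 92 bases before it in Txnrd1, for which it is present at 1 of 3 start sites in the table. A match is a run of letters and does not show that a factor binds there.

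Other antioxidant enzymes did not share this direction: 2 of 19 were higher with DNFB and 5 lower. Among all genes at or above the 40th percentile, 16.6% were higher and 16.1% lower. Cat, catalase, was higher with DNFB (0.72, SE 0.13), and the glutathione peroxidases Gpx1 (-0.79) and Gpx4 (-0.47), the peroxiredoxin Prdx2 (-0.73) and mitochondrial Sod2 (-0.53) were lower. Glrx, glutaredoxin, rose with each compound, by 1.95 and 2.14. A list of 17 genes held flavoenzymes, which DPI can inhibit at the protein level, and oxidase subunits that need not be its direct targets. Of these 17, 2 were higher and 7 lower with DNFB. Cybb, the catalytic subunit of the phagocyte NADPH oxidase, was not called: it read 89.4, 131 and 168 with DNFB and 98.8, 351 and 341 with DPI, which overlap, and its difference was -0.8 (SE 0.53, adjusted p = 0.381). Xdh, xanthine dehydrogenase, fell by 0.56 with DNFB and rose by 0.76 with DPI, and Dhodh, a flavoenzyme of pyrimidine synthesis, was lower with DNFB (-1.23). Ncf4, a cytosolic oxidase subunit, was higher with DNFB (0.77), having fallen with DPI by 0.81.

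NF-kB subunits, their inhibitors and their targets formed the list with the largest share of members higher with DNFB of the 43 lists. Of 18 members 13 were higher and 1 lower, with a median difference of 0.89. Genes at or above the 40th percentile were higher in 16.6% and lower in 16.1%. Traf1, an adaptor of TNF receptors, read 4797, 3891 and 3743 with DNFB, 157, 204 and 149 with DPI and 202, 279.5 and 195 without treatment. The DPI arrays overlapped the untreated ones and the DNFB arrays stood far above both, 22.5-fold over DPI (log2 4.49, SE 0.31, adjusted p = 3.13e-09). Bcl3 and Nfkbie, nuclear and cytoplasmic inhibitor proteins of the IkB family, moved apart from the untreated level: Bcl3 rose by 1.21 with DNFB and fell by 1.87 with DPI, and Nfkbie rose by 1.87 and fell by 1.2. Birc3, an inhibitor of apoptosis (1.78), and the subunit Rel (1.75) rose with DNFB and were not called with DPI. Rela, Relb and Nfkbia were also higher with DNFB, by 1.02, 0.73 and 0.89. Nfkb2, Tnfaip3 and Ptgs2 (cyclooxygenase 2) rose with both compounds, and their direct differences of 0.31, 0.15 and 0.57 were not called. The 1 member that was lower with DNFB was Icam1, an adhesion molecule, at -0.52 (SE 0.15, adjusted p = 0.0171), which rose with DPI by 0.66. The Icam1 call ended without DNFB replicate 2 or 3 or DPI replicate 1 or 3, with differences of -0.42 to -0.51 and adjusted p of 0.0524 to 0.103.

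Costimulatory and maturation genes were more often higher with DNFB, 11 of 22 against 3 lower (median 0.6). At or above the 40th percentile, 16.6% of all genes were higher and 16.1% lower. Havcr2, TIM-3, an inhibitory receptor, read 3861, 4329 and 3646 with DNFB, 56.7, 124 and 162 with DPI and 489, 668 and 507 without treatment. All 3 groups were separate, and the compounds differed 32.7-fold (log2 5.03, SE 0.32, adjusted p = 1.03e-09). Cd80 and Cd83, a ligand of CD28 and a marker of mature dendritic cells, rose with both compounds but further with DNFB. Cd80 was 2800.0, 2899.5 and 2320.4 with DNFB and 859, 678 and 1115 with DPI, from 424, 463 and 417, a direct difference of 1.6 (SE 0.16, adjusted p = 2.93e-07). Cd83 was 2754, 3298 and 2869.7 with DNFB and 1337, 1436 and 1653 with DPI, from 624, 584 and 423, a difference of 1.01 (SE 0.13, adjusted p = 1.18e-05). In both genes the DNFB arrays lay above all DPI arrays and those above all untreated arrays. Cd86, the second CD28 ligand (0.91, adjusted p = 0.000284), Tnfsf4, OX40 ligand (2.01), Tnfsf9, 4-1BB ligand (1.44), and the checkpoint ligand Pdcd1lg2 (1.39) rose with DNFB and were not called with DPI. Cd40 was higher with DNFB by 0.49 (SE 0.14, adjusted p = 0.0166), a call that ended without DNFB replicate 1 (adjusted p = 0.0746) or DPI replicate 1 (0.135). Ccr7, the receptor that guides mature dendritic cells to lymph nodes, was dim and its difference of 1.51 (SE 0.63) was not called (adjusted p = 0.121). Marcksl1 (-1.12) and Cd24a (-0.94) were lower with DNFB.

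Among cytokines, 9 of 22 were higher with DNFB and 2 lower (median 0.55). The shares of all genes at or above the 40th percentile were 16.6% and 16.1%. After quantile or cyclic loess normalization 6 of the cytokines were higher. Il23a, a subunit of IL-23, rose with both compounds, by 3.43 and 1.28, and was higher with DNFB by 2.15. Il1b, interleukin 1 beta, read 1470.1, 692 and 932 with DNFB, 438, 497 and 506 with DPI and 258, 229.7 and 264 without treatment. The 3 groups did not overlap, and the difference was 1.01 (SE 0.23, adjusted p = 0.00261). Csf1, macrophage colony-stimulating factor, was higher with DNFB (2.28), having fallen with DPI by 2.72. Tnf read 172, 439.6 and 402 with DNFB, 30.0, 199.9 and 193 with DPI and 536, 467 and 285 without treatment, so the first DNFB array lay within the DPI range. Its difference of 1.38 (SE 0.46, adjusted p = 0.0406) lost its call under 11 alternatives, among them without DNFB replicate 2 (0.172), DNFB replicate 3 (0.149) or DPI replicate 1 (0.304). Hbegf, an EGF receptor ligand, went the other way, rising by 0.8 with DNFB and 2.82 with DPI, and Il15 was lower with DNFB (-1.08).

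Of 23 chemokines and their receptors 4 were higher and 4 lower with DNFB, shares close to the 16.6% and 16.1% of all genes at or above the 40th percentile. The neutrophil chemokines Cxcl2 and Cxcl3 rose with both compounds and further with DNFB: Cxcl2 read 2284, 1934 and 2237 with DNFB, 1134, 899 and 888 with DPI and 287, 219.7 and 153 without treatment. Those groups were separate, with a difference of 1.14 (SE 0.19, adjusted p = 0.000183), and Cxcl3 differed by 3.08. Ccl3, a chemokine for monocytes and T cells, rose more with DPI (3.41) than with DNFB (2.46), a difference of -0.95. Ccl2, the monocyte chemokine, fell with DNFB by 1.03 and rose with DPI by 0.71. Ccr1 fell with both and was higher with DNFB (2.12), while Cxcr4 rose with DPI (1.56) and was lower with DNFB (-1.26).

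Matrix-degrading enzymes held the gene with the highest difference in the rule-based ranking. Mmp12, macrophage elastase, read 6980.4, 5439 and 7351 with DNFB, 129, 180.4 and 175 with DPI and 193, 246 and 265 without treatment. The DNFB arrays stood apart, and the 3 DPI arrays lay below the 3 untreated ones without a call for that difference. Mmp12 was 37.5-fold higher with DNFB than with DPI (log2 5.23, SE 0.17, adjusted p = 7.19e-14). Mmp10, stromelysin 2 (3.65), Mmp13, collagenase 3 (2.36), and Plaur, the urokinase receptor (3.11), were also among the 6 of 19 members higher with DNFB. The 2 members lower with DNFB were Mmp9, gelatinase B (-0.76), and Plau, urokinase (-0.61). For all genes at or above the 40th percentile the shares were 16.6% higher and 16.1% lower. Procr, the endothelial protein C receptor, which is no member of the list, rose with DNFB to 9973, 8431 and 9853 against 701, 868 and 781 with DPI, 11.8-fold apart (adjusted p = 1.74e-13).

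Of 17 C-type lectin and scavenger receptors, 4 were higher with DNFB and 3 lower. Among all genes at or above the 40th percentile, 16.6% were higher and 16.1% lower. Cd207, langerin, the lectin that defines Langerhans cells and their Birbeck granules, read 933, 1088 and 951 with DNFB, 22.3, 32.4 and 43.5 with DPI and 92.6, 223 and 90.6 without treatment. Again the DNFB arrays were all above and the DPI arrays all below the untreated range, and the compounds differed 21.4-fold (log2 4.42, SE 0.45, adjusted p = 4.37e-07). Clec4d, a lectin that senses fungi and mycobacteria, rose by 2.42 with DNFB and fell by 0.97 with DPI. Of 21 Toll-like receptors and adaptors 6 were higher and 3 lower, a higher count that ran from 3 to 7 when single arrays were left out. Cd14, the lipopolysaccharide co-receptor and also a macrophage marker, read 14064, 13200.0 and 14434 with DNFB, 1559, 1656 and 1644 with DPI and 1443, 1331 and 1159 without treatment. It was higher with DNFB by 3.09 (SE 0.14, adjusted p = 7.1e-12). Ly96 (MD-2), its partner (1.09), and the adaptor Ticam1 (1.62) were higher with DNFB, and Tlr3, the receptor for double-stranded RNA, was lower (-1.75).

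**Figure D2:**
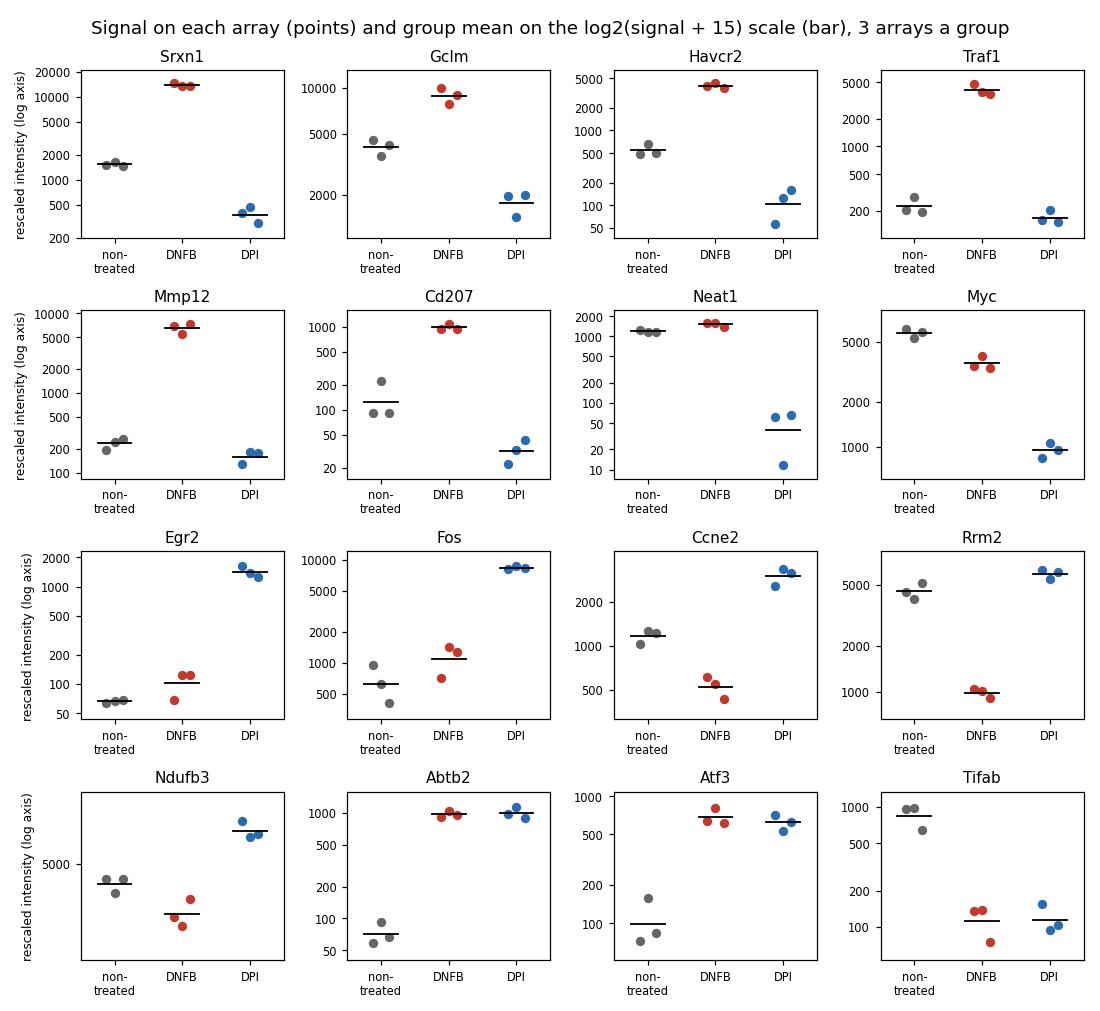
Rescaled MAS5 intensity on a log axis for 16 genes on each non-treated, DNFB and DPI array (points), with the group mean on the log2(signal + 15) scale as a bar, 3 arrays a group. Srxn1, Gclm, Havcr2 and Cd207 lie above the untreated level with DNFB and below it with DPI, Ccne2 lies the other way round, and Abtb2, Atf3 and Tifab lie at like levels with both compounds.

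Many immediate early factors, which transcribe the first response to a stimulus, rose with 1 compound or the other. Of 30 members 18 rose with DNFB and 17 with DPI (6.34% and 7.79% of all genes), 9 with both compounds. In the direct comparison 10 were higher with DNFB and 13 lower, with a median of -0.07. The shares of all genes at or above the 40th percentile were 16.6% and 16.1%. Egr1, Egr2, Egr3 (-1.31), Fos and Fosb (-1.23) were lower with DNFB than with DPI, while of the other FOS family members Fosl2 was higher with DNFB and Fosl1 was not called. Egr2 read 1641, 1393 and 1242 with DPI, 68.3, 123 and 123 with DNFB and 63.3, 67.1 and 68.6 without treatment, and it was 12.3-fold lower with DNFB than with DPI (log2 -3.62, SE 0.22, adjusted p = 3.62e-10). Fos read 8107, 8702 and 8384 with DPI and 714, 1431 and 1266 with DNFB, from 965, 618 and 412, and was 7.61-fold lower with DNFB (log2 -2.93, SE 0.28, adjusted p = 1.79e-07). Egr1 read 8527, 6829.8 and 7149 with DPI and 432, 1448 and 1185 with DNFB, from 952, 522 and 202, a difference of -3.02 (SE 0.41, adjusted p = 1.83e-05). In these 3 genes the DPI arrays lay above every DNFB and untreated array, while at least 1 DNFB array of each lay within the untreated range, and none was called with DNFB. Gadd45b, a stress-induced growth brake, rose with both, by 1.43 with DNFB and 3.62 with DPI, as did the orphan receptor Nr4a3, by 3.02 and 3.9.

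The 3 JUN genes went the other way. Jun, Junb and Jund, which form AP-1 with FOS proteins, were higher by 1.28, 1.46 and 1.45, and Fosl2 by 1.49. Each of these 4 genes rose with DNFB, and of them Fosl2 also rose with DPI, by 0.82. Btg2, an antiproliferative early gene, was higher with DNFB (1.87). Myc fell with both compounds: it read 6126, 5314 and 5842 without treatment, 3452, 4001 and 3374 with DNFB and 845, 1068 and 954 with DPI. The 3 groups were separate, and Myc was 3.74-fold higher with DNFB than with DPI (log2 1.9, SE 0.13, adjusted p = 1.95e-09). The serum response element, the CArG box, was found in the promoters of 3 of 24 immediate early genes (12.5%), against 1.58% of all genes on the array with a promoter entry. These were Zfp36, Egr2 and Srf, while the searched windows of Fos, Fosb, Jun, Junb and Jund held none. By call, 1 of 9 members higher with DNFB and 2 of 10 lower held the box. Egr2 is shown, as the gene with the lowest value in the direct comparison among the named ones, at chr10:67537424-67537573 on the plus strand of GRCm38.p6 with the box in capitals, beginning 72 bases before 1 of its 5 start sites in the RefSeq table. In 3 other windows of the gene the box reads CCATATATGG, beginning 72, 73 and 133 bases before the start site, and 1 window holds none.
Egr2: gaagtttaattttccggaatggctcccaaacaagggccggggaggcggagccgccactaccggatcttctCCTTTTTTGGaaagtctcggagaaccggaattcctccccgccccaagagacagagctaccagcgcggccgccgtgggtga

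Phosphatases and other feedback inhibitors of MAP kinases were called in both directions. Of 17 members 8 were higher with DNFB and 4 lower, against 16.6% and 16.1% of all genes at or above the 40th percentile. The phosphatases Dusp1, Dusp4, Dusp5, Dusp8 and Dusp16 rose with both compounds and further with DNFB, with direct differences of 1.37, 0.99, 1.69, 2.17 and 1.28. Dusp1 rose by 3.94 with DNFB and 2.57 with DPI. Dusp10, which acts on p38 and JNK, rose with DPI (1.59) and was lower with DNFB (-1.39), as was the Sprouty inhibitor Spry2 (-1.03). Dusp6, a phosphatase of ERK, fell with both, by 1.37 and 1.61, and its difference of 0.25 was not called.

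Genes of the cell cycle were lower with DNFB than with DPI. Of 29 mitosis genes 26 were lower and 1 higher (median -0.9), and of 29 DNA replication genes 22 were lower and none higher (median -0.91). Members of both lists all lay at or above the 40th percentile, where 16.1% of genes were lower and 16.6% higher. Against untreated cells, 27 mitosis genes fell with DNFB (median -0.98), while with DPI 6 fell and 4 rose (median -0.15). Among all genes 7.96% fell with DNFB, and 11.1% fell and 7.79% rose with DPI. Of the replication genes 19 fell with DNFB (median -0.82), while with DPI 3 fell and 7 rose (median 0.2). Rrm2, a subunit of the reductase that makes deoxynucleotides, read 1038, 1018 and 908 with DNFB, 6309, 5448 and 6085 with DPI and 4526, 4019.8 and 5116 without treatment. The DPI arrays lay above all untreated arrays and the DNFB arrays far below them, a difference of -2.57 (SE 0.13, adjusted p = 2.09e-11). Aurka, the spindle pole kinase Aurora A, read 465, 444 and 429.5 with DNFB, 1742, 1691 and 1656 with DPI and 1004, 776 and 777 without treatment, and so also lay on opposite sides (-1.89, SE 0.15, adjusted p = 2.6e-08). Nusap1, a spindle protein (-1.83), Ccnb2, cyclin B2 (-1.57), and the checkpoint kinase Bub1 (-1.54) were further members lower with DNFB. Some mitosis genes fell with both: Top2a, Cdk1, Aurkb and Ccna2 did so, and further with DNFB, Top2a by 1.65 against 0.71. Cenpa, the centromeric histone, was the member that was higher with DNFB (0.8). The counts after single arrays were left out were 22 to 26 mitosis genes and 20 to 22 replication genes lower with DNFB.

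Among G1 cyclins, their kinases and E2F factors, 11 of 21 were lower with DNFB and 3 higher (median -0.71). Genes at or above the 40th percentile were lower in 16.1% and higher in 16.6%. Ccne2, cyclin E2, read 613, 543 and 433 with DNFB, 2567, 3358 and 3153 with DPI and 1028, 1270.5 and 1217 without treatment. The groups did not overlap and were 5.6-fold apart (log2 -2.49, SE 0.16, adjusted p = 9.47e-10). Ccne1 (-2.31) and E2f2 (-1.82) likewise fell with DNFB and rose with DPI, the rises being 0.75 and 0.87. Myb, a transcription factor of proliferating blood cell precursors, read 4.7, 7.5 and 16.5 with DNFB, 224, 271 and 303 with DPI and 224, 155 and 276 without treatment. Its DPI arrays overlapped the untreated ones and it was 11.6-fold lower with DNFB (log2 -3.53, SE 0.40, adjusted p = 1.91e-06). Cdkn1a, the cell cycle inhibitor p21, rose with both, 8038, 7250.5 and 6445 with DNFB and 3151, 2625 and 3015 with DPI from 1337, 1318 and 958, and was higher with DNFB by 1.3 (SE 0.13, adjusted p = 5.42e-07). Ccnd1, cyclin D1, fell with both and further with DPI, by 1.25 with DNFB and 2.21 with DPI.

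The core letters of an E2F site, GCGGGAA on either strand, were found in the promoters of 11 of 24 replication genes (45.8%) and of 0 of 25 mitosis genes, against 7.95% of all genes on the array with a promoter entry. They were present in 8 of the 19 replication genes lower with DNFB (42.1%) and in 3 of the 5 that were not called. Cdc6, a replication licensing factor that fell by 1.48 with DNFB and rose by 0.63 with DPI, is shown at chr11:98907941-98908090 on the plus strand of GRCm38.p6, with the match in capitals, beginning 138 bases before the start site.
Cdc6: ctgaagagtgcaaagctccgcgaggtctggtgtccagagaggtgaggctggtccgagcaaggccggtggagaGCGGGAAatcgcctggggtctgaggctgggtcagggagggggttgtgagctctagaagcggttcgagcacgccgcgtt

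Genes of oxidative and biosynthetic metabolism were lower with DNFB than with DPI by small amounts. At or above the 40th percentile, 16.1% of all genes were lower and 16.6% higher. Of 31 respiratory chain subunits 27 were lower with DNFB and none higher (median -0.53), a count that was 17 after quantile normalization, 16 after cyclic loess and 19 after median centring, with medians of -0.44, -0.39 and -0.51. Against untreated cells 4 fell with DNFB (7.96% of all genes) and 9 rose with DPI (7.79% of all genes), with medians of -0.17 and 0.3. Ndufb3, a subunit of complex I, read 3328, 3108 and 3826 with DNFB, 6945, 6124 and 6264 with DPI and 4431, 3993 and 4432 without treatment. The DNFB arrays all lay below and the DPI arrays all above the untreated ones, a difference of -0.91 (SE 0.10, adjusted p = 1.91e-06). Ndufs4 (-0.76) and Ndufb5 (-0.71) of the same complex followed. Sdha, the flavoprotein of complex II, gave a difference of -0.67 with its brightest probe set, while the mean of its probe sets gave 0.11.

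Of 27 genes of sterol and fatty acid synthesis and export, 14 were lower with DNFB and 3 higher (median -0.6). For all genes at or above the 40th percentile the shares were 16.1% lower and 16.6% higher. With DPI 10 of the 27 rose, against 7.79% of all genes. Scd2, a fatty acid desaturase, fell by 1.47 with DNFB and rose by 0.5 with DPI, and Fdps, farnesyl diphosphate synthase, rose by 1.5 with DPI and was lower with DNFB (-1.19). Acly, which makes cytosolic acetyl-CoA (-1.1), and Dhcr7, of the last step to cholesterol (-1.08), were likewise lower. Of 26 genes of glycolysis and the hypoxia response, 13 were lower with DNFB and 3 higher (median -0.42). With DPI 9 of them rose, against the same 7.79% of all genes. Bnip3, a mitophagy receptor (-1.78), Egln3, an oxygen sensor (-1.65), and Tpi1, a glycolytic enzyme (-0.88), rose with DPI and were not called with DNFB. Vegfa, vascular endothelial growth factor, was higher with DNFB by 1.63, having risen by 1.52 with DNFB without a call for DPI.

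**Figure D3:**
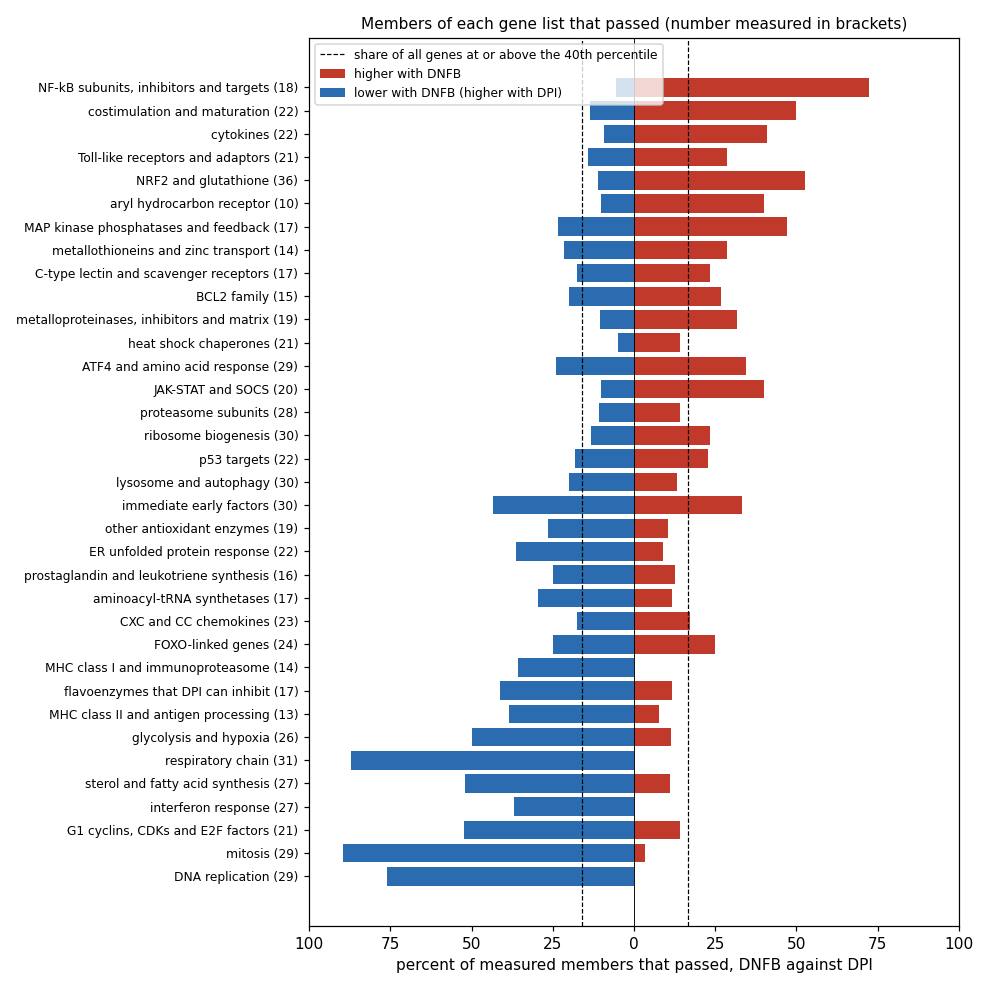
Percent of the measured members of each gene list, cell type markers left out, that were called higher (red, to the right) or lower (blue, to the left) with DNFB than with DPI, ordered by the lists' median difference. Dashed lines mark the shares among all genes at or above the 40th percentile (16.6% higher, 16.1% lower); NF-kB, NRF2 and costimulation genes extend furthest to the right and mitosis, respiratory chain and DNA replication genes to the left.

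Of 29 genes of the amino acid response driven by ATF4, 18 rose with DNFB and 11 with DPI (6.34% and 7.79% of all genes). Between the compounds 10 were higher with DNFB and 7 lower, against 16.6% and 16.1% of all genes at or above the 40th percentile. Chac1, which degrades glutathione, rose with DNFB (1.99) and was higher than with DPI by 2.59, and Cebpb, a partner of ATF4, by 2.48. Atf4 itself rose by 0.9 with DNFB and fell by 0.47 with DPI, and Cebpg rose by 0.7 and fell by 0.78. Cth, which makes cysteine from cystathionine, rose more with DPI (2.43) than with DNFB (0.99). Shmt2 and Phgdh, of serine and one-carbon metabolism, were lower with DNFB (-1.05 and -1.03). Ddit3 (CHOP) rose with both, by 1.56 and 1.29, and its difference of 0.26 was not called.

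Of 22 genes of the unfolded protein response of the endoplasmic reticulum, 2 were higher and 8 lower with DNFB, a lower count that ran from 4 to 9 when single arrays were left out. Dnajb9, a chaperone of that compartment, rose with both, by 0.82 with DNFB and 2.5 with DPI, and Xbp1, its transcription factor, fell with DPI by 1.67 and was higher with DNFB by 1.18. Of 21 heat shock chaperones 3 were higher and 1 lower. Among all genes at or above the 40th percentile, 16.6% were higher and 16.1% lower. Hsph1 (1.18) rose with both compounds and Bag3 (0.78) with DNFB, and both were higher with DNFB. Of 22 p53 targets 5 were higher and 4 lower with DNFB, against the same shares. Plk2, a stress kinase, rose with both, by 2.68 and 3.86, and was lower with DNFB. Of 15 BCL2 family genes 4 were higher and 3 lower. The p53 and BCL2 counts, not far from these shares, are not read as results about the lists. Mcl1, a survival protein with a short half-life, fell with DPI by 1.49 and was higher with DNFB by 1.83, and Pmaip1 (NOXA), its antagonist, rose with both, by 1.32 and 1.99.

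No interferon response gene was higher with DNFB, and 10 of 27 were lower (median -0.61), a count that ran from 7 to 13 when single arrays were left out. For this list and the MHC lists that follow, the shares of all genes at or above the 40th percentile were 16.6% higher and 16.1% lower. Usp18 and Ifit2 fell with DNFB, by 1.97 and 1.86, and differed from DPI by -1.63 and -1.63. Of 14 genes of MHC class I presentation and the immunoproteasome none was higher and 5 lower, among them the immunoproteasome subunits Psmb8 (-0.98), Psmb9 (-1.19) and Psmb10 (-1.08), which fell with DNFB and were not called with DPI. Of 13 genes of MHC class II presentation 1 was higher and 5 lower. Ciita, the class II transactivator, fell with both and was higher with DNFB (0.79). Ctsl, cathepsin L, rose with DPI by 1.75 and was lower with DNFB (-1.32), and Ifi30, a thiol reductase of antigen processing, fell with DNFB by 0.74 (-1.07 against DPI).

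Ribosome biogenesis genes fell with each compound where they were called, 7 of 30 with DNFB and 11 with DPI, against 7.96% and 11.1% of all genes. In the direct comparison 7 of the 30 were higher and 4 lower with DNFB (median -0.01). Rrp12 and Gnl3, nucleolar processing proteins, were higher with DNFB by 0.6 and 0.56, having fallen with DPI by 1.02 and 0.81. Of 30 lysosome and autophagy genes 4 were higher and 6 lower with DNFB. Among all genes at or above the 40th percentile, 16.6% were higher and 16.1% lower. Gla, Gabarap, Map1lc3b, Ctsb and Ulk1 rose with both compounds, and none of these 5 was called between them, with differences of 0.49, 0.19, 0.34, 0.01 and -0.06. Of 28 proteasome subunits 4 were higher and 3 lower, and 8 were higher and 1 lower after quantile normalization. Of 24 genes linked to FOXO factors 6 were higher and 6 lower. Sgk1, a kinase induced by glucocorticoids and stress that phosphorylates FOXO3, read 1045, 1008 and 736 with DNFB and 1352, 1829 and 1779 with DPI, from 67.7, 98.6 and 48.7. Both groups stood far above the untreated arrays, and the DPI arrays lay above the DNFB arrays (-0.82, SE 0.23, adjusted p = 0.0148). That call ended without DNFB replicate 3 or DPI replicate 2 or 3, with differences of -0.67 to -0.77 and adjusted p of 0.0654 to 0.0954.

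**Figure D4:**
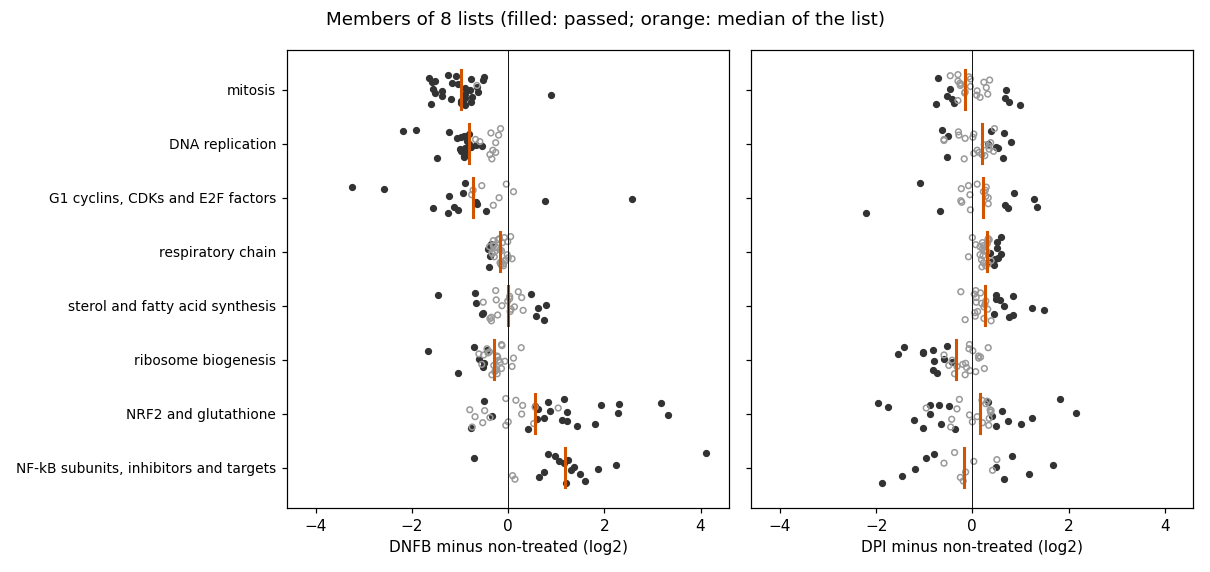
Change of each measured member of 8 gene lists against non-treated cells on the log2 scale, with DNFB at the left and DPI at the right; filled points passed at an adjusted p below 0.05 and the orange bar is the list's median. Mitosis and DNA replication genes lie left of 0 with DNFB (medians -0.98 and -0.82) and near 0 with DPI (-0.15 and 0.2), and NF-kB genes lie right of 0 with DNFB (1.19) and spread to both sides with DPI (-0.16).

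A set of genes moved the same way with both compounds. Against the shared non-treated arrays, 387 genes rose with both and 485 fell with both, 2.13% and 2.67% of all genes. Because both comparisons use the same controls, these counts do not show how far the responses are alike, and the direct difference was used for that. Of the 387, 141 were called between the compounds, 70 larger with DNFB and 71 larger with DPI, and for 164 the 95% interval of the direct difference lay within 1.5-fold (for 291 within 2-fold). Of the 485, 130 were called, 69 with the deeper fall with DNFB and 61 with DPI, and for 206 the interval lay within 1.5-fold (for 391 within 2-fold). The interval counts cover all genes of each kind, called ones included, so they can overlap the called genes. For genes without a call whose interval reached past 1.5-fold, a difference of that size could not be set aside at this precision.

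Abtb2, a BTB domain protein, read 913, 1048 and 951 with DNFB, 974, 1142 and 893 with DPI and 58.5, 93.1 and 66.1 without treatment. The compounds overlapped, both far above the untreated arrays, and the difference was -0.04 with a 95% interval of -0.41 to 0.33. Atf3, a stress-induced repressor of cytokine genes, read 640.5, 802 and 610.4 with DNFB, 714, 536 and 625 with DPI and 72.2, 156 and 83.8 without treatment, also overlapping, with a difference of 0.13 (-0.32 to 0.58). Maff, a small MAF protein that pairs with NRF2, rose by 2.29 and 2.15, a difference of 0.14 (-0.16 to 0.43), and Tcp11l2 rose by 2.19 and 2.03 (-0.11 to 0.44). Cxcl10, a chemokine for activated T cells, rose by 2.5 and 3.02. The interval was wide for other members chosen by the same rule. Hspa1b, inducible HSP70, read 2187, 16908 and 12340.4 with DNFB, 3195, 5110.3 and 2975 with DPI and 151, 491 and 405 without treatment, so the first DNFB array lay below all DPI arrays and the others above, and its interval was 0.03 to 2.13. Sgms2, sphingomyelin synthase 2, had an interval of -0.35 to 2.1, and Jag1, a Notch ligand, one of -1.57 to -0.01.

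Of the genes that fell with both, Tifab read 134, 139 and 75.2 with DNFB, 154, 93.8 and 104 with DPI and 962, 982 and 642 without treatment. Gpr34, a receptor for lysophosphatidylserine, read 103, 129 and 119.9, 92.5, 171 and 97.8 and 560.3, 722 and 626 in the same order. In both genes the compounds overlapped well below the untreated level, and the intervals of the difference were -0.9 to 0.84 and -0.77 to 0.79. Sun3, a nuclear envelope protein, fell by 2.2 and 2.24 (-0.63 to 0.72). Cyp1b1, a cytochrome P450 induced by the aryl hydrocarbon receptor, fell by 2.2 and 2.68, and Fut7, which makes selectin ligands, by 2.06 and 2.44. Kctd14, Kcne3 (a potassium channel subunit) and Sbk1 completed the 8, with differences of 0.5, -0.5 and -0.65 that were not called. For Tifab, Kctd14 and Cyp1b1 at least 1 other probe set gave a direct difference of the opposite sign, none of them called.

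**Figure D5:**
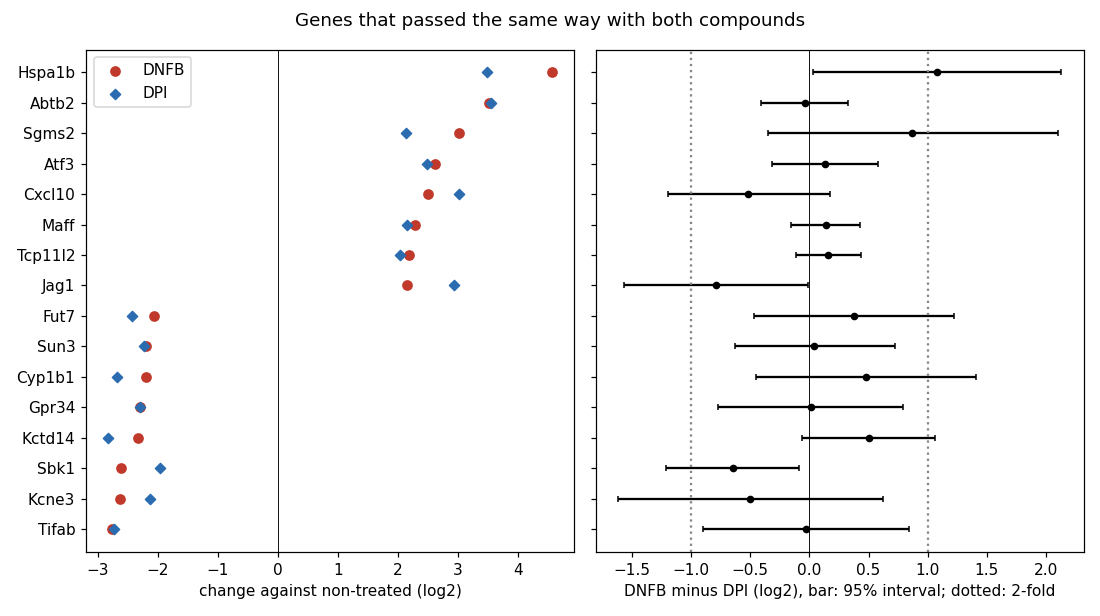
The 8 genes that rose and the 8 that fell with both compounds by the largest amounts without a call between them. The left panel shows the change against non-treated cells with DNFB (circles) and DPI (diamonds) on the log2 scale, and the right panel the direct difference with its 95% interval, with dotted lines at 2-fold; the interval stays inside those lines for Abtb2, Atf3, Maff and Tcp11l2 and passes them for Hspa1b and Sgms2.

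In 248 genes the compounds moved in opposite directions, 145 up with DNFB and down with DPI and 103 the reverse, 0.797% and 0.566% of all genes. These counts depend on the untreated arrays and on the variance model: leaving out 1 non-treated array gave 144 to 146 genes, and limma without a trend gave 90. Besides Srxn1, Havcr2 and Cd207, the first kind held Styk1, a receptor-like kinase, at 1.8 with DNFB and -1.84 with DPI. Ptx3, a soluble pattern receptor, read 4844, 6435 and 7178 with DNFB, 586, 744 and 785 with DPI and 2079, 2407 and 2529.5 without treatment, and the 3 groups did not overlap (3.09, SE 0.15, adjusted p = 2.09e-11). Wwtr1 (TAZ), a coactivator controlled by the Hippo pathway, read 2149.8, 1881 and 1920.4, 247, 346 and 285 and 704, 777 and 796 in the same order, likewise separate (2.71, SE 0.17, adjusted p = 7.41e-10). Meis1, a homeobox factor of blood precursors (1.37 and -1.53), and Sgsm3 (1.64 and -1.39) completed the 8 with the largest opposite changes. For Meis1, 1 other probe set gave a direct difference of the opposite sign that was not called.

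The second kind held Cdca5, sororin, which keeps sister chromatids together. It read 835, 776 and 835 with DNFB, 5046, 4627 and 4976 with DPI and 2048, 1869 and 2278 without treatment, all separate (-2.56, SE 0.11, adjusted p = 6.36e-12). Beside it stood Ccne2 and Aurka, described above, and 5 genes outside the cell cycle lists. Mex3b, an RNA-binding protein, fell by 0.92 with DNFB and rose by 1.58 with DPI, and Akap12, a scaffold of protein kinase A, fell by 1.05 and rose by 1.07. Caprin2 (-1.02 and 1.3), the polarity protein Pard6g (-0.96 and 0.98) and Rflnb (-1.24 and 1.08) followed.

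Several of the largest direct differences lay outside the lists. Neat1, the nuclear RNA that builds paraspeckles, read 1606, 1582 and 1392 with DNFB, 61.3, 11.6 and 66.7 with DPI and 1263, 1159 and 1150.2 without treatment. It fell with DPI by 4.45 and was not called with DNFB, 28-fold apart (log2 4.81, SE 0.44, adjusted p = 1.3e-07), but its other probe set gave a difference of the opposite sign that was not called. Il10ra, the interleukin 10 receptor, read 921, 744 and 655 with DNFB, 11.3, 118 and 37.7 with DPI and 876, 676 and 532 without treatment. It too fell with DPI alone (3.78, SE 0.36, adjusted p = 2.28e-07), and the call ended with the mean of its 3 probe sets. A4galt, which makes globo-series glycolipids, fell with DPI by 2.84 (3.76 between the compounds). Fam167a read 1509, 1516 and 1140.5 with DNFB and 24.4, 42.0 and 7.9 with DPI, from 55.2, 64.9 and 13.1, so it rose with DNFB from near the floor of the array (5.23, SE 0.52, adjusted p = 3.77e-07).

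Among the largest differences toward DPI, Cdk5r1, the activator of CDK5, read 283, 432 and 364 with DPI, 31.5, 113 and 21.3 with DNFB and 15.3, 15.5 and 5.1 without treatment. Frat2, a GSK3-binding protein, read 360.2, 359 and 298 with DPI, 18.7, 24.8 and 22.3 with DNFB and 5.6, 115 and 27.3 without treatment. Both rose with DPI, their DPI arrays above all others, and were lower with DNFB, with differences of -2.62 (SE 0.41, adjusted p = 9.67e-05) and -3.26 (SE 0.57, adjusted p = 0.000302). Etv4, an ETS factor (-2.61), Cmya5 (-3.06) and Fam160a1 (-2.72) also rose with DPI. Lpcat4, a lysophospholipid acyltransferase, fell with DNFB by 2.17 and Fhit, a dinucleoside hydrolase, by 1.45, and both were lower with DNFB than with DPI (-2.72 and -2.6). Pmel, a melanosome protein, was dim and lower with DNFB (-2.68, SE 0.63, adjusted p = 0.00436). Of the other 7 measured melanocyte markers Kit was higher with DNFB (0.71) and 6 were not called; the Kit call ended without DNFB replicate 1 (adjusted p = 0.0808) or DPI replicate 1 (0.0622).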

How the data were processed

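Total RNA was measured on 15 Affymetrix mouse arrays, 3 in each of 5 groups. The deposited values are intensity, made with MAS5 in Affymetrix Expression Console per the submitters' processing notes, which give no versions. As deposited, 6 arrays had a 2% trimmed mean of 250 and the other 9 one of 500, so every array was brought to 500. Group means of log2(signal + 15) over all 15 arrays were fitted with limma 3.58.1 in R 4.3.3 (eBayes with trend, 10 residual degrees of freedom), with Benjamini-Hochberg adjustment over 45037 probe sets. Of these, 34945 had 1 symbol, 932 several and 9160 none; 34741 symbols were matched by gene identifier to RefSeq names (GRCm38.p6), used for names only. Promoters are from RefSeq.

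Named genes have a representative probe set at or above the 40th percentile (6.22 on the log2 scale). They are the 12 largest differences each way with arrays that do not overlap, the 8 largest of each same or opposite kind, up to 4 called members of each list, and genes fixed by name; other list members were picked after their values were seen. The members and the 43 lists were chosen with earlier results of these data known. The steps were tested on simulated data. Alternatives covered scaling, pseudocount, filters, probe set choice, variance model, blocks, thresholds and each array left out. The number of arrays limits the precision. RNA was extracted with TRIzol and a column kit, per the labels' protocols.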

Additional observations from a re-analysis of the deposited data

How the results depend on the processing

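The 4275 genes called between DNFB and DPI became 235 with the values as deposited, where the mixed scaling targets moved the median difference of all genes from -0.08 to -0.33, and all 235 were called the same way after rescaling. They became 1840 with only the arrays deposited at 250 and 1739 with only those at 500, where a group with 1 array (all but DNFB at 250, DNFB at 500) is assumed to vary like the others, and 1548 at 2-fold or more; without single arrays they were 3499 to 4244. The 872 genes called the same way with both compounds became 510 with no trend, 15 as deposited, 61 and 277 with only the arrays at 250 and at 500, 486 at an adjusted p below 0.01, and 200 at 2-fold; without single arrays they were 611 to 746. The 248 opposite genes became 90 with no trend, 2 as deposited, 9 and 45 with only the arrays at 250 and at 500, 374 with array weights, 373 with the brightest probe set of each gene above the percentile, 105 at an adjusted p below 0.01, and 29 at 2-fold. Without single arrays there were 144 to 224, with 146, 145 and 144 without non-treated replicate 1, 2 and 3. The cause of these changes was not tested, beyond the fewer arrays or the stricter threshold where that is the alternative. The share of called genes that were higher with DNFB was 50.2%, and 59.2% with only the arrays at 250.

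With a replicate block the counts were 4618, 1016 and 330. Arrays of the same number correlated in their deviations from the group means with r of 0.114, 0.086 and 0.057, and each DNFB array correlated best with the DPI array of its number, a hint of a link. Since not every pair reached 0.1 and the labels state no pairing, the numbers were not used to pair arrays. Of 203 named genes 183 were called between the compounds, and 151 kept the call under all 24 alternatives other than the deposited values and the single-target sets. With the mean of probe sets per gene, the differences of Bcl2l2 and Sdha reversed, from 0.82 to -0.01 and from -0.67 to 0.11. Other scalings (quantile, cyclic loess, median centring) kept the sign of the median of the NRF2, NF-kB, costimulation, mitosis, DNA replication, respiratory chain and sterol lists. Signal near the floor of the array and the 3 arrays a group limit what the dim genes show.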

Other observations

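Of 14 metallothioneins and zinc carriers, 4 were higher with DNFB than with DPI and 3 lower. Among all genes at or above the 40th percentile, 16.6% were higher and 16.1% lower. Against untreated cells 2 rose with DNFB (6.34% of all genes), and 3 rose and 4 fell with DPI (7.79% and 11.1% of all genes). Mt1, a metallothionein that binds zinc and copper, read 31877, 28238 and 28519 with DNFB, 11551, 10394 and 9887 with DPI and 30455, 26167 and 24229 without treatment, and Mt2 read 19077, 14538 and 16135, 7217, 7518 and 6744 and 19211, 15332 and 14485 in the same order. In both genes the DPI arrays lay below all others, and the differences were 1.48 (SE 0.12) and 1.2 (SE 0.13). Slc39a8, a zinc importer, moved the other way, rising by 2.08 with DPI without a call for DNFB (-2.08 between the compounds). Slc30a1, the zinc exporter of the plasma membrane, rose with DNFB by 0.95 and was higher than with DPI by 1.26. Of 10 genes of the aryl hydrocarbon receptor pathway, 4 fell with DNFB and 4 with DPI (7.96% and 11.1% of all genes). Between the compounds 4 were higher with DNFB and 1 lower. Those higher include Nqo1 and Nfe2l2, which are also members of the NRF2 list, so the 2 lists are not separate. The Nqo1 call ended without single arrays, as given above. Ahrr, the repressor of the receptor, fell by 1.54 and 1.67, and Ahr itself by 0.46 and 0.95.

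Of 20 genes of JAK-STAT signalling and its SOCS feedback, 8 were higher with DNFB and 2 lower. Among all genes at or above the 40th percentile, 16.6% were higher and 16.1% lower. Socs3, an inhibitor of cytokine receptors, rose with both compounds, by 2.39 with DNFB and 0.84 with DPI, as did Cish, by 2.13 and 1.01, and the kinase Pim1, by 1.82 and 0.87. These 3 genes were higher with DNFB by 1.55, 1.11 and 0.95. Ptpn6, the phosphatase SHP-1, fell with both and further with DNFB, by 1.64 and 0.46. Of 16 genes of prostaglandin and leukotriene synthesis 2 were higher with DNFB and 4 lower. Pla2g4a, which frees arachidonic acid, was higher with DNFB (1.15), and Alox5 and Lta4h, of leukotriene synthesis, were lower (-1.04 and -0.67), having fallen with DNFB by 1.21 and 0.54. Of 17 aminoacyl-tRNA synthetases 2 were higher and 5 lower, with Aars at 0.8 and Vars at -0.94.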
